A study of Mus musculus with 140 samples.

Results

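The 37 genes described here are textbook markers of the cells that share the liver with hepatocytes. They fall into 4 lists, namely 14 markers of sinusoidal endothelial cells, 11 of Kupffer cells and other macrophages, 7 of stellate cells and fibroblasts, and 5 of antigen-presenting leukocytes. The genes were chosen by symbol and not by a rule on a measured value, though with earlier results of these data known. They were looked up among the 13236 genes with a row in any of 3 count tables, and 36 of the 37 are among the 10489 genes with a row in all 3. The exception is Lrat, the enzyme that esterifies retinol in stellate cells, which is not analysed here in wild-type mice.

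Hepatocytes make up most of the mass of the liver, and the plates they form are bathed by sinusoids. Sinusoidal endothelial cells line these vessels with a perforated wall and clear waste macromolecules through scavenger receptors such as stabilins. Kupffer cells are the resident macrophages of the sinusoid and take up particles, dying cells and complement-coated microbes. Stellate cells lie between endothelium and hepatocytes, store retinoids and can turn into collagen-producing myofibroblasts, and antigen-presenting leukocytes display peptides on major histocompatibility complex (MHC) class II molecules. Several of the markers are shared between cell types: Mrc1 and Stab1 are also made by some macrophages, and MHC class II genes by dendritic cells, B cells and macrophages.

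RNA was measured in whole liver of 3-month-old male mice held in constant dark with food ad libitum. Before that they had at least 14 days of 12 h light and 12 h dark. The paper names C57BL/6 for the wild-type mice and does not spell out the background of the Per1 and Per2 mutants. For Bmal1KO the labels conflict, one giving constant dark and another a light-dark cycle also during the experiment, and what CT means in that group rests on the former. Livers were taken every 4 h from circadian time (CT) 0 to CT44. The wild-type (WT) group holds 48 libraries, 4 at each of 12 time points. The PerDKO group, mice without Per1 and Per2, which encode repressors of the clock, holds 46, with 3 libraries at CT8 and at CT20. The Bmal1KO group, Bmal1-/- mice of the Jackson line that carries a null allele of Arntl, the gene of the clock activator BMAL1, also holds 46, with 3 libraries at CT16 and at CT20. Both deletions are in the whole body, so that blood cells, vessels and liver carry them alike. The libraries of a time point carry the letters A to D, and no label ties a letter to an animal. The p-values given below therefore measure the spread between these libraries, which may in part be technical. Each genotype was deposited as its own table, so that genotype and anything else that differed between the tables cannot be told apart.

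Libraries held between 1442278 and 5643470 molecule counts, with medians of 3114382 in WT, 3687565 in PerDKO and 3708718.5 in Bmal1KO. As a check of the tissue label, the summed level of 9 hepatocyte genes had a median of 83590 CPM in WT, 96720 in PerDKO and 64981 in Bmal1KO. CPM are molecule counts scaled to the library total with a TMM factor for each library. The 3′ tags do not check the deletions, since Arntl still had a median of 8.35 CPM in Bmal1KO beside 11.01 in WT, and Per2 a median of 19.5 in PerDKO beside 11.9. Nr1d1, a direct BMAL1 target, did not exceed 4.03 CPM in Bmal1KO and reached 347 in WT. In each genotype the 2 libraries least correlated with the genotype's median profile are called below those that stand apart. They are WT CT44 A and CT36 D, PerDKO CT4 C and CT8 C, and Bmal1KO CT44 D and CT40 D. The lowest 2 were taken whatever their distance from the others, over the 4661 to 4826 more highly expressed genes. Their Pearson's r was 0.914 to 0.968, beside medians of 0.982 to 0.989. A further 3 libraries (WT CT44 C, PerDKO CT32 A and Bmal1KO CT44 C) are referred to below as those with high marker levels. The name suits Bmal1KO CT44 C least. It was the highest Bmal1KO library for only 2 of 11 macrophage markers and for 0 of 5 antigen-presenting markers.

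A pair of short gene clusters supplies 6 of the markers. H2-Ab1, H2-Aa and H2-Eb1, which encode chains of MHC class II, lie at chr17:34263227-34269418, chr17:34282744-34287823 and chr17:34305867-34316674. C1qb, C1qc and C1qa, which encode the chains of complement C1q, lie at chr4:136880126-136886200, chr4:136889801-136892936 and chr4:136895916-136898844. All positions are of the GRCm38.p6 assembly as annotated by RefSeq. The members of each cluster moved together over libraries (below), and 2 promoters of each are shown for a motif that both hold, since no promoter window was at hand for H2-Ab1 and C1qa. In the MHC class II genes the capitals mark the Y box (CTGATTGG, searched on both strands), a CCAAT-type element known from MHC class II promoters, which begins 51 bases before the start site of H2-Aa and 62 bases before that of H2-Eb1. Each sequence is the strand of the gene and runs from 250 bases before the start site to 50 after it, at chr17:34287774-34288073 for H2-Aa and chr17:34305617-34305916 for H2-Eb1.
H2-Aa: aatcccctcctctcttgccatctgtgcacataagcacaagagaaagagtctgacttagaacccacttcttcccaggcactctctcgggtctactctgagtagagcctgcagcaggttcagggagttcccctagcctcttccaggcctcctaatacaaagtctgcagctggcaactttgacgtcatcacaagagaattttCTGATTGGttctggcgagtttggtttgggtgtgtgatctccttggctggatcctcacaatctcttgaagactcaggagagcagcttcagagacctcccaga
H2-Eb1: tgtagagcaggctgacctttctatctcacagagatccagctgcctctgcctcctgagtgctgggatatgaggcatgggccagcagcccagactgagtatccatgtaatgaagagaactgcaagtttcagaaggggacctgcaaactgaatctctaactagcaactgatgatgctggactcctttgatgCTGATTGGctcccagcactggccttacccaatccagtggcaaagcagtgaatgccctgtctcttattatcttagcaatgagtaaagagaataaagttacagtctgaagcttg

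In the complement genes the capitals mark the core that ETS factors bind (AGGAAGT, searched on both strands; PU.1 of macrophages is an ETS factor). It lies on the strand opposite to the gene, and its capitals therefore read ACTTCCT. It begins 53 bases before the start site of C1qb (chr4:136886151-136886450) and 195 bases before that of C1qc (chr4:136892865-136893164).
C1qb: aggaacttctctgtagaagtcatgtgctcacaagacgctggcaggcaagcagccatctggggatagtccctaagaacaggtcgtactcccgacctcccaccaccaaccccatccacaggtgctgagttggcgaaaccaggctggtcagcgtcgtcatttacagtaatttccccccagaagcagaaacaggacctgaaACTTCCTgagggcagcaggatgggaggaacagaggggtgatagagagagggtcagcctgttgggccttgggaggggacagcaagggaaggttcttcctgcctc
C1qc: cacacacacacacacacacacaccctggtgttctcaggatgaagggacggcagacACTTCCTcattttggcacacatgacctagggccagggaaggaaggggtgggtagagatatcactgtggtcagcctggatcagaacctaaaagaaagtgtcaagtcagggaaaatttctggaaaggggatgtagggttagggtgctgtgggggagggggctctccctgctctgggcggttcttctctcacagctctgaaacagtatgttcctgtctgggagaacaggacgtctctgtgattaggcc

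RefSeq promoter windows were at hand for 23 of the 37 markers. The Y box was found in 2 of these 23, H2-Aa and H2-Eb1, and in 4.10% of 32851 promoter windows. The ETS core was found in 6 of the 23 (C1qb, C1qc, Egfl7, Lyz2, Mrc1 and Ptprc) and in 9.35% of all windows. The E box CACGTG, which BMAL1 binds with its partner CLOCK, was found in 1 of the 23, Reln, and in 7.15% of all windows. These are matches of letters and not measured binding sites.

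In Bmal1KO liver nearly every marker was lower than in WT, and by list median the macrophage and antigen-presenting markers lay farthest below WT. Of 36 markers tested, 31 were lower and 2 were higher in Bmal1KO (edgeR quasi-likelihood test on the mean over 12 time points, adjusted p under 0.05), while of all 9920 genes tested 76.3% differed, 40.2% lower and 36.1% higher. The median log2 fold was -0.60 over the endothelial markers, -1.70 over the macrophage markers, -0.67 over the stellate markers and -2.17 over the antigen-presenting markers, beside -0.03 over all genes. In PerDKO liver 20 of 36 differed from WT, 7 higher and 13 lower, beside 67.1% of all genes, 34.8% higher and 32.3% lower. The medians there were -0.32, 0.07, -0.08 and 0.01 in the same order, beside 0.02 over all genes. PerDKO exceeded Bmal1KO for 28 markers and was below it for 3, beside 75.0% of all genes that differed, 40.0% higher and 35.0% lower in PerDKO. In whole liver, fewer cells of a type and less RNA of a marker per cell cannot be told apart.

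**Figure D1:**
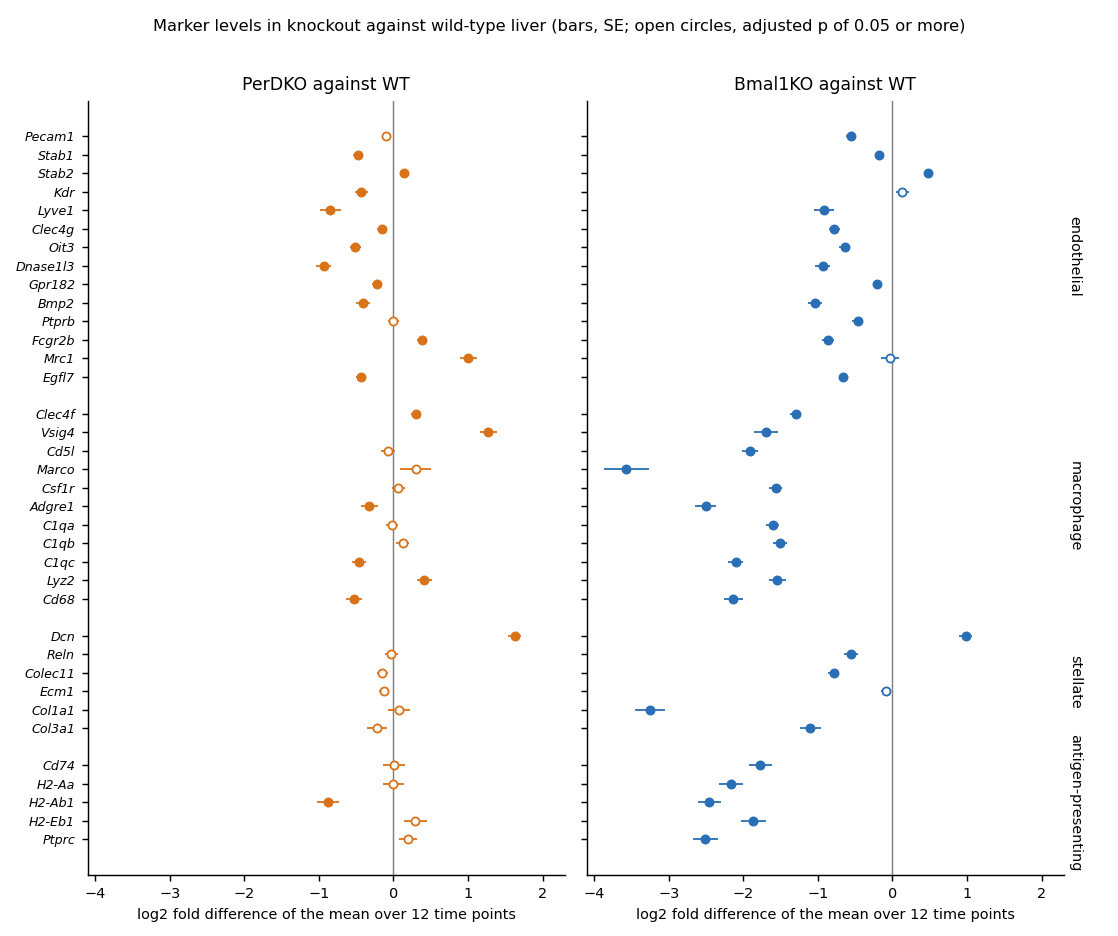
Log2 fold difference of each marker in PerDKO (left) and Bmal1KO (right) against WT, as the mean over 12 time points, with bars of 1 SE from the edgeR fit and open circles where the adjusted p was 0.05 or more. All 11 macrophage and all 5 antigen-presenting markers lie below 0 in Bmal1KO, down to -3.57 for Marco, whereas in PerDKO the markers lie on both sides of 0, from -0.94 for Dnase1l3 to 1.63 for Dcn.

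The 11 macrophage markers were lower in Bmal1KO in every case, by 2.46-fold for Clec4f to 11.9-fold for Marco. Clec4f, a lectin made by Kupffer cells and few other cells, ranged over WT libraries from 74.2 to 182 CPM with a median of 104. In PerDKO it ranged from 88.3 to 234 with a median of 127, and in Bmal1KO from 20.4 to 81.3 with a median of 44.1. The Bmal1KO libraries lay below every PerDKO library and overlapped the lowest WT libraries. Clec4f was 1.30 ± 0.07 (SE) lower on the log2 scale in Bmal1KO than in WT (adjusted p = 1.77e-32) and 0.30 ± 0.07 higher in PerDKO than in WT (adjusted p = 8.94e-05).

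C1qa, which encodes a chain of the first complement component, ranged from 116 to 358 CPM in WT (median 169.6), from 109 to 567 in PerDKO (median 165) and from 29.2 to 104 in Bmal1KO (median 62.4). No Bmal1KO library reached the lowest WT or PerDKO library. C1qb ranged from 70.6 to 333 in WT (median 113), from 73.4 to 411 in PerDKO (median 124) and from 19.3 to 73.0 in Bmal1KO (median 43.1). C1qc ranged from 50.0 to 321 in WT (median 108), from 50.2 to 266 in PerDKO (median 80.8) and from 10.6 to 60.1 in Bmal1KO (median 27.1). The 3 chains, which assemble in equal numbers in the protein, did not differ alike: in PerDKO against WT the log2 folds were -0.02 ± 0.08 for C1qa (adjusted p = 0.841), 0.12 ± 0.09 for C1qb (adjusted p = 0.216) and -0.46 ± 0.09 for C1qc (adjusted p = 7.99e-06). In Bmal1KO against WT they were -1.61 ± 0.09, -1.51 ± 0.09 and -2.10 ± 0.10.

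Cd5l, a protein that macrophages secrete, ranged from 55.4 to 255 CPM in WT (median 96.6), from 49.4 to 288 in PerDKO (median 93.0) and from 13.3 to 56.9 in Bmal1KO (median 28.4). The Bmal1KO libraries met the others only at the edge of their ranges, and Cd5l was 3.76-fold lower there than in WT. Marco, a scavenger receptor for bacteria, varied widely between libraries. It ranged from 5.19 to 109.6 CPM in WT (median 15.5), from 7.67 to 159 in PerDKO (median 19.4) and from 0 to 60.6 in Bmal1KO (median 1.21, or 4 counts). The library Bmal1KO CT44 C held the value of 60.6, and the next highest Bmal1KO library was at 10.7. Marco was 3.57 ± 0.30 lower in Bmal1KO on the log2 scale (adjusted p = 5.28e-21), and 3.86 ± 0.27 lower without the 3 libraries with high marker levels.

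Vsig4, a complement receptor of resident macrophages, was above WT in PerDKO and below it in Bmal1KO. It had medians of 4.11 CPM in WT (13 counts), 10.4 in PerDKO (36.5 counts) and 1.44 in Bmal1KO (5 counts), with ranges of 0.436 to 11.3, 4.93 to 26.0 and 0 to 4.76. Every PerDKO library exceeded every Bmal1KO library, while WT overlapped both. Vsig4 was 2.42-fold higher in PerDKO than in WT (log2 fold 1.27 ± 0.12, adjusted p = 5.53e-18) and 3.24-fold lower in Bmal1KO (adjusted p = 1.65e-17). Adgre1, which encodes the macrophage antigen F4/80, ranged from 4.54 to 36.0 CPM in WT (median 12.2), from 4.58 to 28.5 in PerDKO (median 9.29) and from 0.379 to 4.02 in Bmal1KO (median 2.19). It was 5.68-fold lower in Bmal1KO with no overlap with WT or PerDKO. In PerDKO it was 1.25-fold lower than in WT (adjusted p = 0.00762), a difference that did not pass without the libraries of letter C (adjusted p = 0.0892) or of letter D (adjusted p = 0.111).

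The other macrophage markers are given as means with SD. Csf1r, the receptor on which macrophages depend for survival, had 69.0 ± 19.6 CPM in WT (n = 48), 72.8 ± 24.1 in PerDKO (n = 46) and 23.5 ± 7.84 in Bmal1KO (n = 46). Lyz2, the lysozyme of myeloid cells, had 72.3 ± 29.6, 98.1 ± 59.6 and 25.0 ± 9.46. Cd68, a lysosomal protein of phagocytes, had 21.1 ± 11.6, 14.5 ± 6.88 and 4.70 ± 1.40. Against WT, Csf1r did not pass the test in PerDKO (log2 fold 0.07 ± 0.08, adjusted p = 0.479), Lyz2 was 1.33-fold higher (adjusted p = 0.000334) and Cd68 was 1.44-fold lower (adjusted p = 6.64e-06). Cd5l (-0.07 ± 0.10, adjusted p = 0.503) and Marco (0.30 ± 0.20, adjusted p = 0.191) did not pass there.

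A longer macrophage list of 16 genes, 13 of them measured in all 3 tables, had 9 genes lower and 1 higher in Bmal1KO, and 5 higher and 4 lower in PerDKO. The 3 with the smallest adjusted p in Bmal1KO were Slc40a1, the iron exporter, 2.85-fold lower (adjusted p = 4.98e-39), Fcer1g, an Fc receptor chain, 4.24-fold lower (adjusted p = 1.52e-32) and Ctss, a lysosomal protease, 4.00-fold lower (adjusted p = 1.16e-29). Not every gene of this list was lower. Mpeg1, a pore-forming protein of macrophages, was 1.58-fold higher in Bmal1KO (adjusted p = 2.25e-07), and Cd163 (log2 fold -0.12 ± 0.12) and Nr1h3 (0.01 ± 0.03) did not pass, both named after their values were seen. In PerDKO the 3 smallest were Nr1h3, the nuclear receptor LXR alpha, which hepatocytes also make, 1.31-fold lower (adjusted p = 1.98e-19), Cd14, the endotoxin co-receptor, 1.68-fold higher (adjusted p = 8.47e-07) and Tyrobp, a signalling adaptor, 1.47-fold higher (adjusted p = 2.62e-06).

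**Figure D2:**
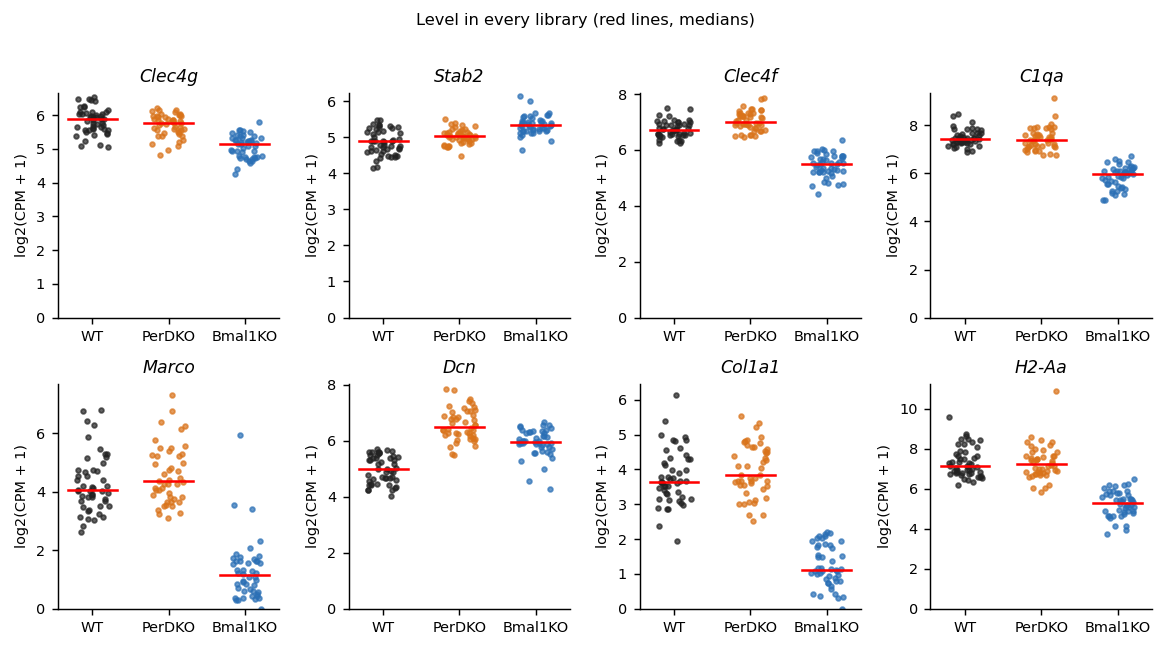
Level of single markers in every library as log2(CPM + 1), by genotype, with the median as a red line. The genes are Clec4g, Stab2, Clec4f, C1qa, Marco, Dcn, Col1a1 and H2-Aa. For C1qa the highest Bmal1KO library (104 CPM) lies below the lowest WT library (116 CPM), whereas Marco has 1 Bmal1KO library at 60.6 CPM.

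The 5 antigen-presenting markers were also lower in Bmal1KO in every case, by 3.42-fold to 5.70-fold. H2-Aa, the alpha chain of the MHC class II molecule I-A, ranged from 72.6 to 759.6 CPM in WT (median 140.1), from 56.1 to 1884 in PerDKO (median 151) and from 12.3 to 87.1 in Bmal1KO (median 38.1). H2-Ab1, its beta chain, ranged from 56.2 to 428 in WT (median 131), from 32.9 to 756 in PerDKO (median 74.3) and from 10.0 to 84.8 in Bmal1KO (median 28.7). H2-Eb1, the beta chain of I-E, ranged from 28.4 to 437 in WT (median 61.5), from 33.7 to 972 in PerDKO (median 74.4) and from 8.37 to 50.1 in Bmal1KO (median 20.7). The Bmal1KO libraries overlapped the low end of the other groups, and none reached a WT median. Cd74, the invariant chain that escorts MHC class II, ranged from 63.6 to 835 in WT (median 119), from 55.5 to 1552 in PerDKO (median 122) and from 16.8 to 107 in Bmal1KO (median 42.8). Ptprc, the CD45 antigen of all leukocytes, ranged from 1.31 to 22.96 in WT (median 5.86), from 2.353 to 26.5 in PerDKO (median 6.99) and from 0 to 2.57 in Bmal1KO (median 1.04, or 4 counts).

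In Bmal1KO against WT the log2 folds were -2.17 ± 0.16 for H2-Aa, -2.46 ± 0.16 for H2-Ab1, -1.86 ± 0.17 for H2-Eb1, -1.77 ± 0.16 for Cd74 and -2.51 ± 0.17 for Ptprc. In PerDKO only H2-Ab1 passed the test, 1.83-fold lower than in WT (adjusted p = 9.88e-08). The alpha chain it pairs with did not pass (H2-Aa, log2 fold -0.00 ± 0.14, adjusted p = 0.999), nor did H2-Eb1 (0.29 ± 0.15, adjusted p = 0.0854), Cd74 (0.01 ± 0.15, adjusted p = 0.952) or Ptprc (0.19 ± 0.12, adjusted p = 0.163). Of 12 further antigen-presentation genes 7 were measured in all 3 tables, and of these 6 were lower and none higher in Bmal1KO. The smallest adjusted p were those of Irf8, a transcription factor of dendritic cells, 2.57-fold lower (adjusted p = 1.15e-19), H2-DMa, a peptide-loading chain, 3.51-fold lower (adjusted p = 2.13e-17) and its partner H2-DMb1, 3.13-fold lower (adjusted p = 2.98e-16). In PerDKO 2 of the 7 were higher, Ctsh by 1.08-fold and Cd79b, a B cell receptor chain, by 1.40-fold.

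Other leukocyte genes moved with these lists in Bmal1KO. Of 12 genes of T cells, natural killer cells, neutrophils or leukocytes at large, 6 were measured in all 3 tables. Of these 6, 5 were lower and none higher in Bmal1KO, and their summed level ranged from 18.5 to 62.2 CPM beside 54.7 to 457 in WT. Ccl5, a chemokine of T cells and natural killer cells, was 8.74-fold lower (adjusted p = 3.04e-22), Arhgdib 2.62-fold lower (adjusted p = 1.65e-23) and Laptm5 2.19-fold lower (adjusted p = 3.95e-21). In PerDKO 3 of the 6 were higher and 3 lower. S100a9, a neutrophil protein, was 2.78-fold higher (adjusted p = 1.51e-10), Arhgdib 1.29-fold lower and Coro1a 1.23-fold higher. The part of these cells in the levels of the macrophage and antigen-presenting markers was not tested.

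A few libraries held the highest levels of these 2 lists. WT CT44 C was the highest WT library for 9 of 11 macrophage and 4 of 5 antigen-presenting markers. PerDKO CT32 A was the highest PerDKO library for 10 of 11 macrophage and all 5 antigen-presenting markers. In the latter, H2-Aa was at 1884 CPM, whereas the 3 other libraries of that time point were between 101 and 327. Other leukocyte genes were also at their highest there, at a summed 459 CPM beside 196 in the next PerDKO library. Without these libraries and Bmal1KO CT44 C, 19 markers differed between PerDKO and WT.

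**Figure D3:**
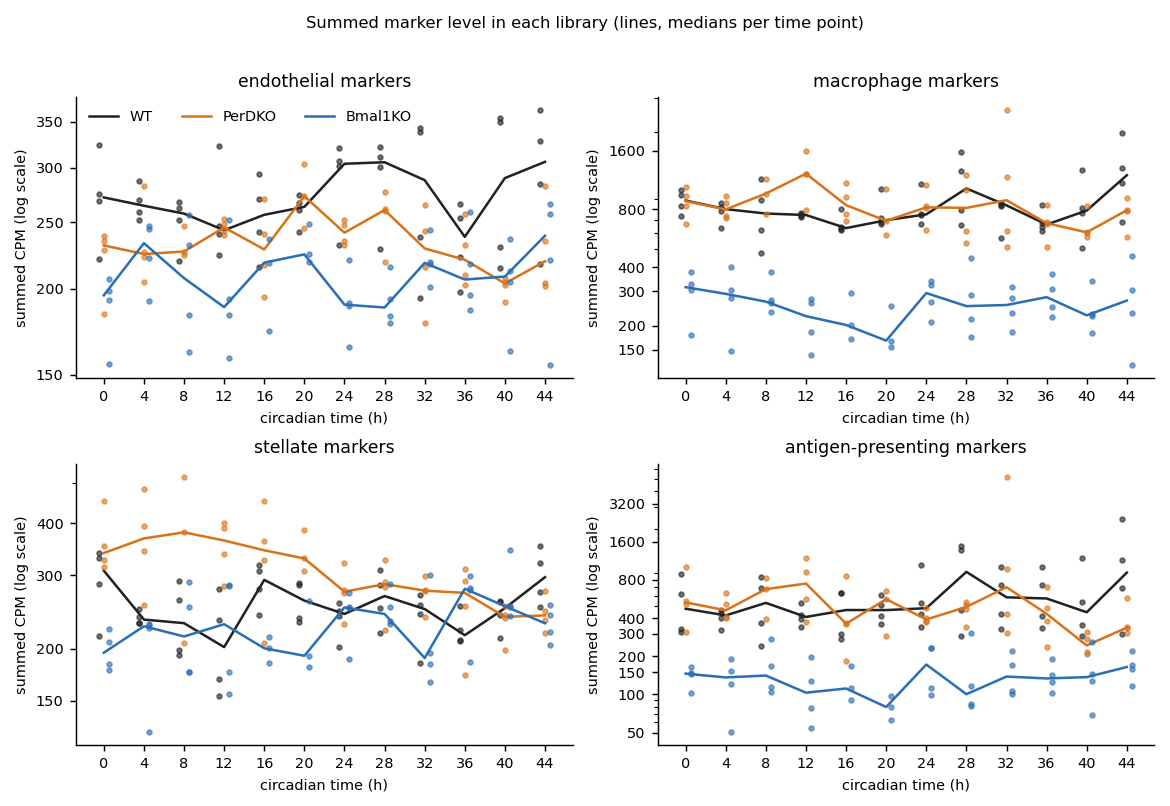
Summed CPM of each list in every library against circadian time in hours, on a log axis, with lines through the medians per time point of WT, PerDKO and Bmal1KO. The Bmal1KO macrophage sums lie between 125 and 456 CPM and the WT sums between 475 and 1982, and PerDKO CT32 A reaches 5189 CPM in the antigen-presenting list.

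The endothelial markers differed from WT in both directions in both mutants. In Bmal1KO 11 of 14 were lower and 1 was higher than in WT, and in PerDKO 9 were lower and 3 higher. Clec4g, a lectin of sinusoidal endothelium, ranged from 32.4 to 92.7 CPM in WT (median 57.5), from 27.3 to 73.2 in PerDKO (median 53.1) and from 18.1 to 55.1 in Bmal1KO (median 34.5). It was 1.72-fold lower in Bmal1KO (log2 fold -0.78 ± 0.07, adjusted p = 2.61e-18), with overlapping libraries. Its difference in PerDKO (-0.15 ± 0.07, adjusted p = 0.0453) did not pass under 9 of 14 alternative settings.

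The stabilins, a pair of scavenger receptors that clear hyaluronan and other waste from blood, went different ways. Stab2 ranged from 16.8 to 43.9 CPM in WT (median 28.5), from 21.3 to 44.4 in PerDKO (median 31.6) and from 24.2 to 69.1 in Bmal1KO (median 39.3). Stab1 ranged from 20.4 to 44.6 in WT (median 29.6), from 15.0 to 32.5 in PerDKO (median 21.99) and from 10.2 to 40.6 in Bmal1KO (median 26.4). Stab2 was 1.39-fold higher in Bmal1KO (adjusted p = 2.21e-13) and 1.11-fold higher in PerDKO (adjusted p = 0.0153), the latter not past the threshold without the libraries of letter A (adjusted p = 0.174). Stab1 was 1.39-fold lower in PerDKO (adjusted p = 2.36e-11). In Bmal1KO Stab1 was 1.13-fold lower (adjusted p = 0.00578), not past the threshold without the libraries of letter D (adjusted p = 0.0632).

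Egfl7, a protein that endothelium secretes, ranged from 20.2 to 59.4 CPM in WT (median 34.6), from 17.8 to 35.4 in PerDKO (median 26.5) and from 12.9 to 36.2 in Bmal1KO (median 22.1), and was lower in both mutants, by 1.35-fold and 1.58-fold. Gpr182, an atypical chemokine receptor of sinusoidal endothelium, ranged from 10.5 to 39.7 in WT (median 22.6), from 11.3 to 29.2 in PerDKO (median 18.8) and from 10.8 to 35.7 in Bmal1KO (median 18.9). Its differences were small, 1.16-fold lower in PerDKO (adjusted p = 0.00178) and 1.15-fold lower in Bmal1KO (adjusted p = 0.00313), the latter not past the threshold without the libraries of letter D (adjusted p = 0.0796). Oit3, a marker of sinusoidal endothelium, had means of 21.2 ± 6.11 in WT, 14.7 ± 3.95 in PerDKO and 13.5 ± 3.51 in Bmal1KO, and was 1.42-fold and 1.56-fold lower. Dnase1l3, which digests DNA in blood, had 7.29 ± 2.40, 3.76 ± 1.29 and 3.76 ± 1.31, and was 1.91-fold lower in both. Lyve1, a hyaluronan receptor, had 6.27 ± 3.36, 3.43 ± 1.86 and 3.33 ± 1.70, and was 1.80-fold and 1.89-fold lower.

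Fcgr2b and Mrc1 were the endothelial markers on which the mutants differed most. Fcgr2b, the inhibitory Fc receptor that sinusoidal endothelium uses to clear immune complexes, ranged from 5.67 to 26.2 CPM in WT (median 11.4), from 10.4 to 20.1 in PerDKO (median 15.2) and from 3.32 to 11.8 in Bmal1KO (median 6.10). It was 1.30-fold higher in PerDKO (adjusted p = 6.93e-07) and 1.82-fold lower in Bmal1KO (adjusted p = 1.59e-19). Mrc1, the mannose receptor, had means of 2.42 ± 1.03, 5.23 ± 2.32 and 2.34 ± 0.986 and was 2.01-fold higher in PerDKO (adjusted p = 3.49e-14). In Bmal1KO it did not pass (log2 fold -0.03 ± 0.12, adjusted p = 0.836).

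Of the genes that endothelium throughout the body makes, Pecam1, an adhesion protein, had means of 12.7 ± 2.598 CPM in WT, 11.9 ± 2.32 in PerDKO and 8.68 ± 2.40 in Bmal1KO. Ptprb, a receptor phosphatase, had 12.4 ± 3.82, 12.3 ± 2.83 and 8.82 ± 2.47. Both were lower in Bmal1KO, by 1.48-fold and 1.38-fold, and neither passed in PerDKO (adjusted p = 0.203 and 0.990). Kdr, the main receptor for vascular endothelial growth factor, had 13.8 ± 5.14, 10.5 ± 3.88 and 15.1 ± 4.20, and was 1.35-fold lower in PerDKO (adjusted p = 6.82e-06) while in Bmal1KO it did not pass (adjusted p = 0.138). Bmp2, the ligand that instructs hepatocytes to make hepcidin, had 6.50 ± 2.45, 4.91 ± 1.53 and 3.15 ± 1.14, and was 1.33-fold lower in PerDKO and 2.06-fold lower in Bmal1KO.

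Of 20 further endothelial genes 18 were tested, with 15 lower and 1 higher in Bmal1KO, and 10 lower and 5 higher in PerDKO. Those with the smallest adjusted p in Bmal1KO were Cdh5, the cadherin of endothelial junctions, 2.16-fold lower (adjusted p = 1.27e-26), Ehd3, a membrane-trafficking protein, 2.11-fold lower (adjusted p = 1.19e-24) and Flt4, a growth factor receptor, 1.87-fold lower (adjusted p = 4.29e-24). In PerDKO they were Ehd3, 1.98-fold lower (adjusted p = 8.73e-22), Tie1, an orphan receptor, 1.87-fold lower (adjusted p = 5.66e-20) and Flt4, 1.63-fold lower (adjusted p = 8.40e-18). The exception in Bmal1KO was Flt1, a decoy receptor for the ligands of Kdr, which was 1.40-fold higher (adjusted p = 1.57e-08) and was named after its value was seen.

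The stellate markers did not move as one. Dcn, the matrix proteoglycan decorin, ranged from 15.4 to 51.9 CPM in WT (median 30.7), from 44.5 to 228 in PerDKO (median 89.9) and from 18.4 to 102 in Bmal1KO (median 61.9). It was 3.09-fold higher in PerDKO (log2 fold 1.63 ± 0.09, adjusted p = 1.03e-32) and 1.97-fold higher in Bmal1KO (0.98 ± 0.09, adjusted p = 3.36e-18), although single libraries overlapped. The highest values, 228 and 224, were those of PerDKO CT8 C and CT4 C, which are among the 6 libraries that stand apart. Without the 6 libraries that stand apart the log2 folds were 1.58 and 1.05.

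Col1a1 and Col3a1, which encode fibrillar collagens, went the other way. Col1a1 ranged from 2.84 to 69.7 CPM in WT (median 11.5), from 4.71 to 44.96 in PerDKO (median 13.3) and from 0 to 3.58 in Bmal1KO (median 1.17, or 4 counts). It was 9.53-fold lower in Bmal1KO than in WT (log2 fold -3.25 ± 0.20, adjusted p = 2.19e-30), and no Bmal1KO library reached a PerDKO library. Col3a1 ranged from 3.20 to 45.3 in WT (median 15.6), from 5.38 to 33.1 in PerDKO (median 13.5) and from 1.57 to 22.3 in Bmal1KO (median 7.68), and was 2.15-fold lower in Bmal1KO (adjusted p = 1.14e-11). In PerDKO neither passed (Col1a1 0.08 ± 0.14, adjusted p = 0.654; Col3a1 -0.22 ± 0.13, adjusted p = 0.124).

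Ecm1, a secreted matrix protein that hepatocytes also make, ranged from 82.9 to 164 CPM in WT (median 122), from 58.3 to 169 in PerDKO (median 108) and from 58.8 to 179 in Bmal1KO (median 114), and passed in neither mutant (adjusted p = 0.0546 and 0.161). Colec11, a collectin of innate immunity, ranged from 30.1 to 79.8 in WT (median 52.2), from 27.9 to 81.8 in PerDKO (median 46.7) and from 17.7 to 46.8 in Bmal1KO (median 30.0). Reln, the glycoprotein reelin, ranged from 6.53 to 19.2 in WT (median 12.6), from 6.55 to 20.3 in PerDKO (median 12.3) and from 3.68 to 18.6 in Bmal1KO (median 8.53). Colec11 and Reln were lower in Bmal1KO, by 1.73-fold (adjusted p = 1.84e-18) and 1.47-fold (adjusted p = 1.40e-08), and did not pass in PerDKO (adjusted p = 0.0562 and 0.786). Lrat, the marker without a WT value here, had 1.55 ± 1.02 CPM in PerDKO and 1.33 ± 0.981 in Bmal1KO, with 2 and 5 libraries at 0 counts.

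Of 16 further stellate cell and fibroblast genes 14 were tested, with 11 lower and none higher in Bmal1KO, and 3 higher and 4 lower in PerDKO. The smallest adjusted p in Bmal1KO were those of Cygb, a globin of stellate cells, 2.52-fold lower (adjusted p = 5.11e-27), Vim, the intermediate filament vimentin, 2.52-fold lower (adjusted p = 1.38e-21) and Hand2, a transcription factor, 2.01-fold lower (adjusted p = 6.73e-19). Those in PerDKO were all higher, with Pdgfra, a growth factor receptor of fibroblasts, at 2.07-fold (adjusted p = 2.51e-09), Sparc, a matrix protein, at 1.37-fold (adjusted p = 7.04e-07) and Hgf, the hepatocyte growth factor, at 1.67-fold (adjusted p = 0.000173).

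Genes of the remaining liver cells also differed between genotypes, and their part in the marker levels was not tested. Of 5 bile duct genes all were higher in PerDKO, while in Bmal1KO 2 were higher and 2 lower. Their summed level ranged from 38.5 to 121 CPM in WT, from 58.5 to 232 in PerDKO and from 38.2 to 475 in Bmal1KO. Spp1, the matrix protein osteopontin, was 1.99-fold higher in PerDKO (adjusted p = 7.06e-14) and 2.09-fold higher in Bmal1KO (adjusted p = 1.15e-15). Sox9, a duct transcription factor, was 1.29-fold and 1.99-fold higher, and Epcam, an epithelial adhesion protein, was 1.45-fold higher in PerDKO and 2.74-fold lower in Bmal1KO. Of 5 erythroid genes only 1 was measured in all 3 tables. This gene, Alas2, the haem enzyme of red cell precursors, was 2.16-fold lower in PerDKO (adjusted p = 1.98e-26) and 1.90-fold lower in Bmal1KO (adjusted p = 6.73e-22). Of 10 hepatocyte genes 9 were tested, and of these 4 were higher in each mutant, with 2 lower in PerDKO and 3 in Bmal1KO. Alb, albumin, was 2.03-fold lower in Bmal1KO (adjusted p = 2.02e-26) and Cps1, a urea cycle enzyme, 1.69-fold higher, while Apoa1, an apolipoprotein, was lower in both, by 1.49-fold in PerDKO and 1.65-fold in Bmal1KO. In PerDKO Asgr1, a lectin of hepatocytes, was 1.40-fold lower and Hnf4a, a transcription factor, 1.29-fold higher.

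Counting libraries and not fitted values, the highest library of one genotype lay below the lowest of the other for 2 markers in Bmal1KO against WT (Adgre1 and C1qa), beside 2.49% of 9980 genes with a mean of at least 1 CPM. It did so for 6 markers in PerDKO against Bmal1KO (Clec4f, Vsig4, Adgre1, C1qa, C1qb and Col1a1), beside 2.82% of those genes, and for none in PerDKO against WT, beside 0.391%.

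Markers of one cell type varied together over libraries to different degrees. Within each genotype 12 pairs were compared on log2(CPM + 1), as deviations from the mean of each time point. Permutation tests used 100000 permutations within time points, 1e-05 being the smallest p they can give, adjusted over 36 correlations. H2-Aa was tied to Cd74, H2-Eb1 and H2-Ab1 with Pearson's r of 0.887 to 0.982 in the 3 genotypes, and C1qa to C1qb and C1qc with r of 0.869 to 0.922. The p was the smallest possible in each of these cases, and r stayed between 0.843 and 0.965 without the 2 libraries farthest from the median. C1qa and H2-Aa, genes of different chromosomes and lists, were also tied. Their r was 0.825 in WT, 0.846 in PerDKO and 0.671 in Bmal1KO (Spearman's rho 0.803, 0.766 and 0.706). Macrophages make both, while dendritic cells and B cells also make MHC class II. Which cells account for this tie was not tested.

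The Kupffer cell genes Clec4f and Vsig4 were less closely tied, with r of 0.596 in WT, 0.599 in PerDKO and 0.657 in Bmal1KO (rho 0.620, 0.612 and 0.619, adjusted permutation p of at most 0.000617 for r). The endothelial pair Stab2 and Clec4g was tied in WT (r = 0.574, rho = 0.531, adjusted permutation p = 0.00175), while in PerDKO r was 0.339 (adjusted permutation p = 0.0755) and in Bmal1KO 0.202 (adjusted permutation p = 0.25). In Bmal1KO r was 0.412 without the 2 libraries farthest from the median (adjusted permutation p = 0.0139), so that its size depends on these libraries. Dcn and Col3a1 were tied in PerDKO (r = 0.524, rho = 0.527, adjusted permutation p = 0.00182) and had r of 0.219 in WT and 0.040 in Bmal1KO. Between lists, Stab2 and Clec4f had r of 0.489 in WT (adjusted permutation p = 0.00255), 0.273 in PerDKO and 0.176 in Bmal1KO, the last of which was 0.497 without the 2 libraries farthest from the median. Stab2 and Dcn, and Clec4f and Dcn, had r between -0.017 and 0.322.

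Rhythm was sought with JTK_CYCLE, the rank test of the study, on normalized counts of genes counted in every library, at q under 0.2. In WT 12 of 36 markers had a 24 h rhythm, beside 48.6% of all genes tested. The count was 6 when the libraries of letter A were left out, 5 for letter C and 10 for either of the other letters. They were 4 of 14 endothelial, 5 of 11 macrophage and 3 of 6 stellate markers and none of the 5 antigen-presenting markers (none at an unadjusted p under 0.05 either). The 12 had fitted peak-to-trough folds of 1.20 to 1.80, and 11 of them peaked between CT18 and CT1 of the fitted day. Stab2 peaked apart from these, at CT5.72.

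Gpr182 had the smallest q of all (q = 0.00953, exact JTK test), with a fold of 1.48 and a peak at CT19.4. Its normalized count was lowest at CT4 (54.2 ± 8.42, SD, n = 4) and CT36 (55.9 ± 21.9) and highest at CT40 (86.7 ± 12.8) and CT44 (89.6 ± 26.0). Stab2 (q = 0.0190, fold 1.39) ran in another phase, with 106 ± 18.4 at CT8 and 64.6 ± 5.64 at CT20. Both were called under all 14 settings tried. Fcgr2b (q = 0.0687, fold 1.49, peak at CT18.6) was lowest at CT4 (26.6 ± 7.35) and highest at CT40 (52.2 ± 22.1), and Oit3 (q = 0.0687, fold 1.39, peak at CT22.8) ranged from 47.2 ± 9.27 at CT36 to 76.4 ± 20.9 at CT28.

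Among the macrophage markers C1qa (q = 0.0631, fold 1.33, peak at CT23.7) ranged from 465 ± 102 at CT36 to 761 ± 274 at CT44. Vsig4 (q = 0.0828, fold 1.71, peak at CT22.6) was at 8.48 ± 3.38 at CT36 and 22.7 ± 11.7 at CT44, and Adgre1 (q = 0.140, fold 1.80, peak at CT21.96) at 23.4 ± 7.34 and 74.3 ± 35.4 at the same times. The maximum of all 3 at CT44 includes the library WT CT44 C. These calls were less stable than those of Gpr182 and Stab2, with C1qa called under 11 of 14 settings, Vsig4 under 9 and Adgre1 under 7. Clec4f (q = 0.159, fold 1.24, peak at CT0.719) and Csf1r (q = 0.195, fold 1.32, peak at CT23.6) were called under 11 and 4.

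Of the stellate markers Ecm1 (q = 0.0719, fold 1.20, peak at CT21.6) ranged from 327 ± 15.4 at CT8 to 422 ± 83.1 at CT0. Dcn (q = 0.0719, fold 1.46, peak at CT20.8) ranged from 70.8 ± 19.5 at CT12 to 126 ± 29.6 at CT44, and Colec11 (q = 0.113, fold 1.33, peak at CT20.3) from 124 ± 43.0 at CT12 to 202 ± 29.3 at CT16. The time points overlapped in each case, and Ecm1 and Dcn were called under 11 of 14 settings and Colec11 under 10. Among companion genes 5 of 18 endothelial, 3 of 13 macrophage, 4 of 10 stellate and 1 of 5 antigen-presentation genes tested had a 24 h rhythm in WT.

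No marker was called rhythmic in a mutant by JTK_CYCLE. In PerDKO none of 36 was called at 24 h, beside 0.0864% of all genes, with 5 at an unadjusted p under 0.05. The study searched further periods in these mice and reported almost none besides 16 h. At 16 h none of the 36 was called, beside 4.73% of all genes, with 1 at an unadjusted p under 0.05. In edgeR, with a separate model for each period, 5 markers were called at each period at the same q. By this test 1.92% of all genes were called at 24 h and 5.84% at 16 h. The markers were Cd74, H2-Aa, H2-Ab1, H2-Eb1 and Kdr at 24 h, and the same 4 antigen-presenting markers and C1qc at 16 h. The 4 antigen-presenting markers have PerDKO CT32 A as their highest library. In Bmal1KO none of the 32 markers counted in every library was called at 24 h or at 16 h, beside 0.0116% of all genes at 24 h and 0.0116% at 16 h, with 0 and 1 at an unadjusted p under 0.05. Marco, Vsig4, Col1a1 and Ptprc had libraries at 0 in Bmal1KO and did not enter.

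**Figure D4:**
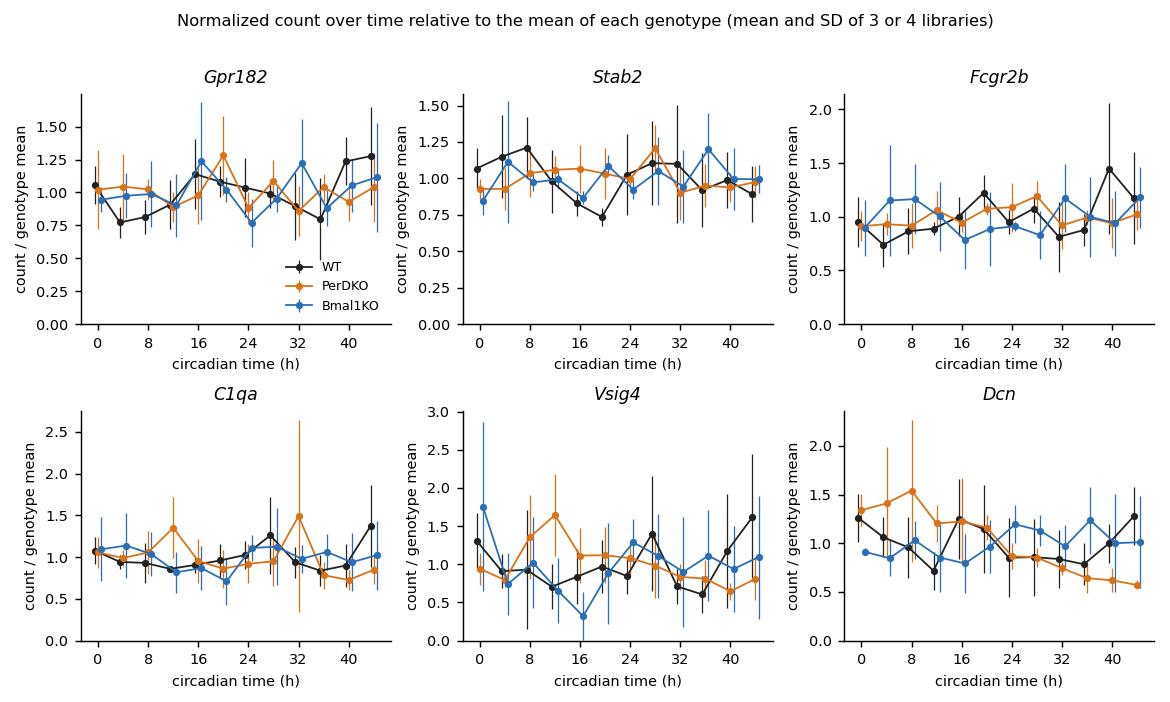
Normalized count over circadian time in hours, divided by the mean of its genotype, for Gpr182, Stab2, Fcgr2b, C1qa, Vsig4 and Dcn in WT, PerDKO and Bmal1KO (points, means; bars, SD of 3 or 4 libraries). In WT Gpr182 is low at CT4 and CT36 and high at CT40 and CT44, whereas Stab2 is highest at CT8 and lowest at CT20.

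A rhythm called in one genotype and not in another does not show that the rhythms differ, and the difference was tested in edgeR on the 24 h terms. Between PerDKO and WT 8 of 36 markers differed, beside 25.4% of all genes. They were 4 macrophage markers (Cd68, adjusted p = 0.00147; Adgre1, adjusted p = 0.0138; Lyz2, adjusted p = 0.0317; C1qa, adjusted p = 0.0330) and 4 antigen-presenting markers (Ptprc, adjusted p = 0.00371; Cd74, adjusted p = 0.0213; H2-Aa, adjusted p = 0.0218; H2-Eb1, adjusted p = 0.0291). No endothelial marker passed this test, although 3 had an unadjusted p under 0.05. Without the 3 libraries with high marker levels only Cd68 (adjusted p = 0.0202) and Stab2 (adjusted p = 0.0477) passed, and without the libraries of letter A only Cd68 (adjusted p = 0.0371) and Ptprc (adjusted p = 0.0304). Cd68 was highest at CT44 in WT (129 ± 82.4) and at CT8 in PerDKO (76.9 ± 37.5).

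Between Bmal1KO and WT 1 marker, Fcgr2b, differed in its 24 h terms (adjusted p = 0.0204), beside 19.0% of all genes. It did not pass without the libraries of letters B, C or D, and without the 3 libraries with high marker levels Gpr182 passed with it (adjusted p = 0.0230). None of 36 differed at 16 h between PerDKO and WT in edgeR, beside 0.262% of all genes, with 6 at an unadjusted p under 0.05.

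The differences of several markers between PerDKO and WT depended on the day of sampling, a comparison chosen after seeing the data. Over CT0 to CT20, 14 markers were higher and 6 lower in PerDKO than in WT, whereas over CT24 to CT44, 4 were higher and 16 lower. Of all genes tested 31.5% were higher and 27.5% lower over CT0 to CT20, and 27.8% higher and 29.0% lower over CT24 to CT44. On the first day 5 macrophage markers were higher and none lower, and on the second 1 was higher and 4 were lower. The antigen-presenting markers had 4 higher and 1 lower on the first day and 1 lower on the second. The endothelial markers had 4 higher and 5 lower, then 2 higher and 9 lower.

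The change of the PerDKO difference from WT between the days was itself past the threshold for 9 markers, beside 16.4% of all genes. For all 9 the difference was lower on the second day. This test sets the change within PerDKO against that within WT. Between the days the antigen-presenting markers changed by log2 0.30 to 0.65 in WT and -0.28 to -0.14 in PerDKO. The macrophage markers changed by 0.08 to 0.64 in WT and -0.40 to -0.04 in PerDKO. Dcn had a mean of 134 ± 40.5 CPM in PerDKO on the first day and 73.2 ± 15.7 on the second, beside 34.7 ± 11.2 and 30.4 ± 10.5 in WT. Its difference from WT shrank from 1.97 to 1.27 on the log2 scale (change -0.69 ± 0.18, adjusted p = 0.00334). Mrc1 had 6.77 ± 1.76 and 3.81 ± 1.82 CPM in PerDKO, beside 2.42 ± 0.998 and 2.42 ± 1.07 in WT (change -0.85 ± 0.23, adjusted p = 0.00418). Both stayed above WT on either day. Kdr had 12.7 ± 4.06 and 8.43 ± 2.31 CPM in PerDKO, beside 12.5 ± 3.03 and 15.1 ± 6.43 in WT (change -0.86 ± 0.17, adjusted p = 0.000117), so that it differed on the second day alone.

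Ptprb, with 13.5 ± 3.06 and 11.2 ± 2.07 CPM in PerDKO beside 11.3 ± 2.42 and 13.4 ± 4.63 in WT, went from above WT to below it (adjusted p = 0.00450). The others were Bmp2 (change -0.56 ± 0.18, adjusted p = 0.0229), Cd5l (-0.61 ± 0.19, adjusted p = 0.0197), Cd68 (-0.64 ± 0.21, adjusted p = 0.0251), H2-Ab1 (-0.80 ± 0.29, adjusted p = 0.0427) and H2-Eb1 (-0.87 ± 0.31, adjusted p = 0.0374). Dcn, Kdr, Mrc1 and Ptprb passed without each letter in turn and without the 6 libraries that stand apart. Without the 3 libraries with high marker levels 14 markers passed, among them C1qc, Marco and all 5 antigen-presenting markers, and without the libraries of letter C 4 passed.

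Within PerDKO 9 markers were lower on the second day than on the first, beside 11.1% of all genes lower in that comparison. They were Mrc1 (log2 change -0.90 ± 0.14, adjusted p = 2.57e-07), Dcn (-0.89 ± 0.12, adjusted p = 7.50e-09), Kdr (-0.56 ± 0.13, adjusted p = 0.000367), Lyve1 (-0.56 ± 0.21, adjusted p = 0.0392), Vsig4 (-0.40 ± 0.15, adjusted p = 0.0372), Cd5l (-0.38 ± 0.14, adjusted p = 0.0342), Reln (-0.34 ± 0.12, adjusted p = 0.0284), Ptprb (-0.28 ± 0.10, adjusted p = 0.0352) and Ecm1 (-0.27 ± 0.09, adjusted p = 0.0145). Dcn, Kdr and Mrc1 passed without the libraries of each letter and without the 6 libraries that stand apart, which left these 3 alone. None of the 36 differed between the days in WT in edgeR, beside 1.75% of all genes, with 11 at an unadjusted p under 0.05, and none in Bmal1KO, beside 0.0101% of all genes, with 3 at an unadjusted p under 0.05. The Bmal1KO difference from WT changed between the days for none of the 36, beside 0.242% of all genes, with 3 at an unadjusted p under 0.05. The erythroid gene Alas2 moved the other way in PerDKO, with a median of 76.5 CPM on the first day and 152 on the second (log2 change 1.01 ± 0.11, adjusted p = 3.52e-12), and its part was not tested.

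**Figure D5:**
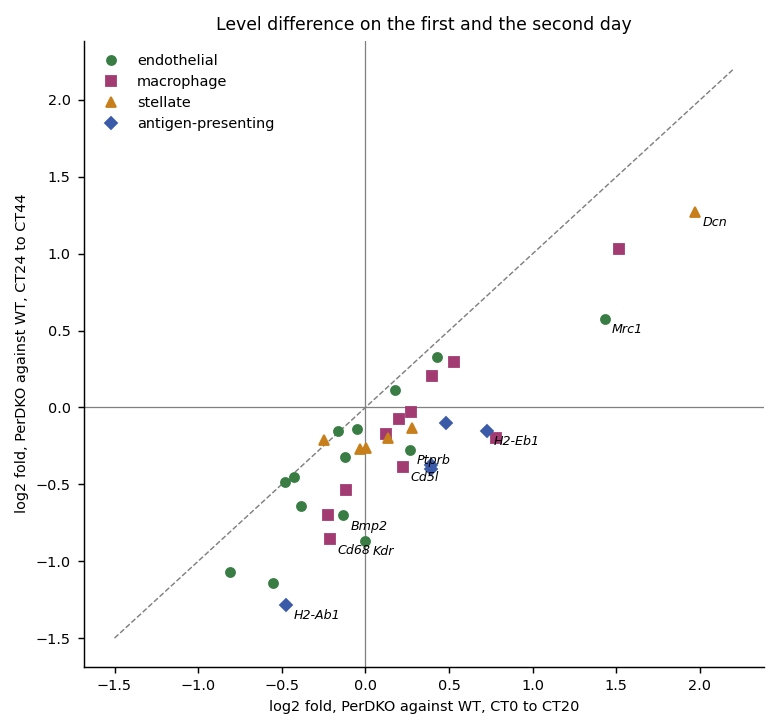
Log2 fold of each marker in PerDKO against WT over CT0 to CT20 (x axis) and over CT24 to CT44 (y axis), by list. Dcn lies at 1.97 and 1.27 and Kdr at -0.00 and -0.87, and most markers lie below the diagonal, which marks equal differences on both days.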

How the data were processed

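Bulk MARS-seq, a 3′ tag method with unique molecular identifiers, was used on 140 mouse liver libraries. The authors deposited molecule counts per gene, one table per genotype. Per the labels, reads were converted with bcl2fastq, trimmed with cutadapt, aligned with STAR to mm10 and counted with HTSeq over RefSeq genes extended at both ends. Tool versions are not given in the sources used here. The deposited counts are whole numbers and were used as they stand. For WT and PerDKO the authors also deposited a normalized signal, the counts divided by 1 DESeq2 size factor per library within each table. Counts divided by median-of-ratios size factors differed from it by a relative 7.08e-15 at most. Tags lie near the 3′ end, so levels are compared for one gene between libraries and not between genes.

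Levels were tested with edgeR 4.0.16 (R 4.3.3) by quasi-likelihood on 36 groups of genotype and time point with TMM scaling, as the mean of the 12 time-point coefficients, at a Benjamini-Hochberg adjusted p under 0.05 over all 9920 genes tested. Levels are printed as TMM-scaled CPM. Rhythm was tested with the exact JTK_CYCLE test (Python 3.11.15) on counts divided by median-of-ratios size factors, for genes above 0 in every library, at q under 0.2. Rhythm and day differences were edgeR contrasts, and the division into days and the removal of 3 libraries with high marker levels and of 6 that stand apart were chosen after seeing the data. The scripts were tested on simulated data.

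Every marker tested is described. The 5 markers of each list with the highest mean CPM and its 3 rhythmic markers with the smallest q are given with lowest, median and highest value or by time point, and each companion list by its 3 called genes with the smallest adjusted p. Genes outside this rule are named as such. The members and lists were chosen with earlier results of these data known. No pair of libraries of one group agreed within sampling noise (204 pairs). Alternatives were other scaling, filters, tests, a replicate block and libraries left out.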

Additional observations from a re-analysis of the deposited data

Results flagged for a closer look

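The summed level of each list was compared between the 4 libraries of a time point, and in 9 of 128 such groups 1 library stood apart by Dixon's criterion, which chance alone gives in about 1 in 20 groups. In the macrophage list these were WT CT16 C (804.88 CPM, others 620.52 to 648.46), WT CT20 D (1018.3, others 673.92 to 717.67), WT CT32 B, which was low (565.73, others 833.4 to 864.5), and PerDKO CT40 D (831.61, others 576.08 to 610.65). In the stellate list they were Bmal1KO CT4 A, which was low (126.49, others 224.55 to 229.3), and Bmal1KO CT40 B (346.15, others 239.45 to 253.98). In the antigen-presenting list they were PerDKO CT32 A (5189.3, others 304.28 to 971.56), PerDKO CT44 A (579.14, others 302.94 to 339.85) and Bmal1KO CT28 B (303.93, others 80.563 to 117.28).

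The 24 h terms differed between PerDKO and WT in edgeR for Adgre1 (adjusted p = 0.0138), C1qa (adjusted p = 0.033), Cd68 (adjusted p = 0.00147), Lyz2 (adjusted p = 0.0317), Cd74 (adjusted p = 0.0213), H2-Aa (adjusted p = 0.0218), H2-Eb1 (adjusted p = 0.0291) and Ptprc (adjusted p = 0.00371), and between Bmal1KO and WT for Fcgr2b (adjusted p = 0.0204). H2-Aa reached 2239 ± 3089 normalized counts at CT32 in PerDKO (SD, n = 4), a mean that rests on 1 library. The difference between PerDKO and WT changed from the first day to the second for Bmp2 (adjusted p = 0.0229), Cd5l (adjusted p = 0.0197), Cd68 (adjusted p = 0.0251), Dcn (adjusted p = 0.00334), H2-Ab1 (adjusted p = 0.0427), H2-Eb1 (adjusted p = 0.0374), Kdr (adjusted p = 0.000117), Mrc1 (adjusted p = 0.00418) and Ptprb (adjusted p = 0.0045).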

How the results depend on the processing

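No value called in the reported run changed sign under any alternative run. Values not called there could, as Ptprb did in PerDKO against WT between the first day and the second. Of the counts of called markers, 322 values stayed within 1.5 times the reported one, 32 were lower and 8 higher. At a fold of at least 1.5, PerDKO differed from WT for 6 markers, 3 higher and 3 lower, 1 marker was higher in Bmal1KO than in WT and 0 were lower in PerDKO than in Bmal1KO. Over CT0 to CT20, 14 markers were higher and 6 lower in PerDKO than in WT, and over CT24 to CT44, 4 were higher. Leaving out the libraries of each letter in turn gave 18 to 21 markers that differed between PerDKO and WT, 31 to 33 between Bmal1KO and WT and 31 between PerDKO and Bmal1KO. The letters gave 5 to 10 rhythmic markers in WT, 2 to 6 with a 24 h rhythm difference in PerDKO, 0 to 1 in Bmal1KO, 3 to 17 lower on the second day in PerDKO and 4 to 10 with a day difference. Rhythm in WT at q under 0.05 was called for 2 markers, and edgeR in place of JTK_CYCLE called 5 markers at 24 h and 5 at 16 h in PerDKO. Without the 6 libraries that stand apart, 5 markers had a rhythm difference in PerDKO, 3 were lower on its second day and 5 had a day difference. Without the 3 libraries with high marker levels, 2 had a rhythm difference in PerDKO, 2 in Bmal1KO and 14 a day difference. The cause of these changes was not tested, other than that fewer libraries were used.

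With the letter as a replicate block, 20, 33 and 31 markers differed in level, 14 were rhythmic in WT and 8 and 1 differed in rhythm. The letters were not taken to pair the libraries, since no label says so. Within a genotype, libraries of one letter had a mean correlation of deviations of 0.013 (-0.00362 for different letters). Of 140 libraries 49 had their highest mean correlation with the libraries of their own letter. Equal shares among 4 letters would give fewer, and whether the libraries are structured by letter was not tested. Depth limits Vsig4, Marco, Col1a1 and Ptprc in Bmal1KO, with median counts of 5, 4, 4 and 4 per library.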
